A study of Rattus norvegicus with 6 samples.

Results

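The 10 genes described here set the pace of the G1 phase of the cell cycle: the D-type cyclins Ccnd1, Ccnd2 and Ccnd3, the kinases Cdk4 and Cdk6, the inhibitors Cdkn1a, Cdkn1b, Cdkn2b and Cdkn2c, and the pocket protein gene Rb1. They were found by gene symbol in the deposited table, where each of the 10 had 1 entry among 17833 genes, and all 10 passed the filter on low expression that left 15150 genes for testing. The values are FPKM, that is, fragments divided by gene length and by the library total. Pulmonary veins (PVs) of the right upper lobe were collected at postnatal day 21 from wild-type Sprague-Dawley rats (strain label SD). The 3 rats of the BPVB group had their PVs constricted by bilateral pulmonary vein banding at postnatal day 1 by the sample labels (the design text of the series names the operation PAB), and the 3 rats of the sham group underwent the same chest surgery without constriction. Each library is bulk RNA of whole vein tissue, so that a rise in a transcript cannot be told apart from a larger share of the cells that carry it.

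In quiescent cells the pocket protein RB binds E2F transcription factors and holds S-phase genes silent. Mitogens induce D-type cyclins, which activate CDK4 and CDK6, and these kinases phosphorylate RB so that E2F is released. The INK4 inhibitors, among them the products of Cdkn2b (p15) and Cdkn2c (p18), bind CDK4 and CDK6 and keep the cyclin out, whereas the CIP/KIP inhibitors, among them the products of Cdkn1a (p21) and Cdkn1b (p27), bind assembled cyclin-CDK complexes and inhibit CDK2 most strongly. In the vessel wall this machinery is known for governing the growth of smooth muscle cells after injury, and rapamycin-type drugs that act on the mTOR kinase slow it in G1.

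Recovered library totals were between 23439506 and 29725808 fragments, with a ratio of 1.16 between the mean totals of the BPVB and sham groups. The 10 genes were counted with 32 (Cdkn2b, sham) to 3532 (Cdkn1b, BPVB) fragments per library. Markers of PV cardiomyocytes, smooth muscle and endothelium were present in all 6 libraries. The summed FPKM of 7 alveolar type 2 cell markers was 543 to 590 in the BPVB group and 53.9 to 56.5 in the sham group. That of the 5 measured macrophage markers was 617 to 644 and 185 to 191, of which Lyz2, a gene that alveolar type 2 cells also express, made up most (3.63-fold higher), and the other 4 were 1.57-fold to 2.24-fold higher. The sum of 8 cardiomyocyte markers was 14470 to 14890 in the BPVB group and 19110 to 19480 in the sham group, with 6 called lower and Nppa and Ryr2 called higher, and that of 6 endothelial markers was 896 to 910 and 990 to 999. Marker sums of 7 smooth muscle genes were 4673 to 4737 and 5046 to 5095 (4 called lower, Lmod1 higher), and those of 5 fibroblast genes were 5057 to 5093 and 4577 to 4587, with Col1a1, Col3a1 and Pdgfra called higher and Dcn and Lum lower. Alveolar type 1 cell markers summed to 179 to 187 and 125 to 128, where Hopx and Clic5 dominated in the sham group and Ager, Aqp5 and Rtkn2 were 6.10-fold, 8.60-fold and 8.94-fold higher, while Hopx was called lower (59.3 and 70.9). Ciliated and club cell markers summed to 105 to 119 and 136 to 143, mostly Tppp3, at 85.3 and 135 FPKM. The club cell marker Scgb1a1 went the other way, at 25.4 and 4.07. Foxj1 and Scgb3a2 were at 0 in the BPVB group and averaged only 0.012 and 0.038 FPKM in the sham group. Both were below the filter and not tested. The markers of neurons and Schwann cells summed to 31.0 to 32.6 and 93.8 to 102. Among them Chat was at 0 in the BPVB group and at 0.177 FPKM in the sham group, and was not tested. Neutrophil markers summed to 6.15 to 10.1 and 17.7 to 20.1, T cell markers to 10.65 to 12.97 and 8.03 to 8.82 (mostly Cd4, which macrophages also express, at 8.42 and 4.93, with 0 of the other 5 called), and B cell markers to 2.40 to 2.80 and 1.87 to 3.14. The part of these shifts in the values of the G1 genes was not tested.

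Upstream sequence was given for 7 of the 10 genes in the RefSeq promoter table of GRCr8 (Ccnd1, Ccnd2 and Cdk6 had none). The 250 bases before the annotated start are shown for the 3 genes with the largest rises and for the 1 gene that fell, the called genes for which the table holds a sequence (Ccnd1, also called, has none). They are Cdkn1a (chr20:7150682-7150931, plus strand), Cdkn2b (chr5:109134856-109135105, minus strand), Cdkn2c (chr5:129644892-129645141, minus strand) and Cdk4 (chr7:64771203-64771452, plus strand). Each runs 5′ to 3′ on the strand of its gene, and capitals mark the matches to the motifs searched on both strands.
Cdkn1a: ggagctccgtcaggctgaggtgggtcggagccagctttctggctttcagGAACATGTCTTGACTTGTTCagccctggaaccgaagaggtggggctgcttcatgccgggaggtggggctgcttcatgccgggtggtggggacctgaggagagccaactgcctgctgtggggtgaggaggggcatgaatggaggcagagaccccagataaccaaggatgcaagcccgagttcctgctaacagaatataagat
Cdkn2b: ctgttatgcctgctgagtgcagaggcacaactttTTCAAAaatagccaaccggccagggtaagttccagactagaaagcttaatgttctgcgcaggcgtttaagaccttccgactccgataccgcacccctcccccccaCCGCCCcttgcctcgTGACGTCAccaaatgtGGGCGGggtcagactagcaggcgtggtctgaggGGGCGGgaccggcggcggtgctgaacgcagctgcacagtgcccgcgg
Cdkn2c: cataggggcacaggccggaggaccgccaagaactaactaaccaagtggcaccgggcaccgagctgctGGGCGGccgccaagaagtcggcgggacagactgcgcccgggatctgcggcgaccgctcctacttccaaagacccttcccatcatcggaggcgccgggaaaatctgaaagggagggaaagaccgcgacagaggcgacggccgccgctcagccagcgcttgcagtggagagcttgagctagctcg
Cdk4: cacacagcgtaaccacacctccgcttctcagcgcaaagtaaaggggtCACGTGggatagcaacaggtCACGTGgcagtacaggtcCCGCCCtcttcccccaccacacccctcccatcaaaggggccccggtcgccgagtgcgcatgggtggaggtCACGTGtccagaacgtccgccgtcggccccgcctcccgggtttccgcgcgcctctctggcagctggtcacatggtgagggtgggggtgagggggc

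The capitals in Cdkn1a are a match to the consensus response element of p53, the tumor suppressor for which Cdkn1a is the classic target gene. It lies 201 to 182 bases before the annotated start and has 1 mismatch among 20 bases. Such a match, with at most 1 mismatch outside the core C and G and no spacer between the half-sites, stood in 15 of 33469 promoters (0.0448%). In Cdkn2b the capitals are 3 GC boxes (GGGCGG, the letters bound by Sp1), 1 cyclic AMP response element (TGACGTCA) and 1 match to the letters of the cell cycle homology region (TTTGAA). In these windows GC boxes were found in 6 of the 7 genes, that is, all but Cdkn1a, and in 30.5% of all promoters. Whether the annotated start is the main start of a gene in these veins was not tested. TGACGTCA was found in Cdkn2b alone among the 7 and in 1.59% of all promoters, and TTTGAA in Cdkn2b alone and in 16.2%. Cdkn2c held 1 GC box. Cdk4 held 1 GC box and 3 E-boxes (CACGTG, the letters bound by MYC and related factors), which stood in 5.59% of all promoters. Both E2F motifs, TTTCCCGC (0.813% of promoters) and TTTGGCGC (0.412%), and the AP-1 motif TGAGTCA (4.05%) had no match in these windows of the 7 genes. The G and C content was 58.8% in Cdkn1a, 60.8% in Cdkn2b, 65.2% in Cdkn2c and 66.8% in Cdk4, beside a median of 51.2% over all promoters. A match of letters describes the sequence and does not show that a factor is bound. The p53 and E-box searches were chosen after these sequences were seen.

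Cdkn1a had the largest rise of the 10 genes on log2(FPKM + 0.5), although by the ratio of the means Cdkn2b rose slightly more. Its FPKM was 30.7, 32.4 and 29.2 in the BPVB veins against 4.93, 5.13 and 4.92 in the sham veins, so that every banded vein lay far above every sham vein and the groups did not overlap. The mean rose from 4.99 ± 0.115 (SD, n = 3) to 30.7 ± 1.63 (SD, n = 3), which is 6.16-fold. On log2(FPKM + 0.5) the difference was 2.51 (standard error 0.061, 95% confidence interval 2.37 to 2.64, adjusted p = 2.1e-08, limma with Benjamini-Hochberg adjustment over all tested genes). It was the 28th largest rise among the 15150 tested genes. This gene encodes p21, which arrests cells in G1 and also helps to assemble cyclin D with its kinase. Across the 17 alternative settings its log2 difference stayed between 2.40 and 2.62.

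Cdkn1b, the other CIP/KIP inhibitor of the set, had the highest level of the 10 in both groups. FPKM values of 58.4, 54.7 and 53.9 in the BPVB veins against 55.4, 53.6 and 52.9 in the sham veins overlapped. The log2 difference was 0.04 (95% confidence interval -0.05 to 0.14, adjusted p = 0.47, limma). Within each library, Cdkn1a stood at 0.525, 0.592 and 0.541 of the FPKM of Cdkn1b in the BPVB group and at 0.0890, 0.0957 and 0.0930 in the sham group. The ratio was thus 5.97-fold higher after banding, in a comparison that a single factor per library cannot move. The exact permutation test, two-sided, gave p = 0.1, which is the smallest p that 3 libraries against 3 allow. After adjustment over the 5 ratios the p of this permutation test was 0.17.

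Both INK4 inhibitors of the set rose. For Cdkn2b, whose product p15 is induced by TGF-beta in many epithelial cells, the FPKM was 2.75, 2.62 and 1.87 in the BPVB veins against 0.295, 0.337 and 0.470 in the sham veins. The banded veins were all higher, and replicate 3 was the lowest of the BPVB group and the highest of the sham group. The ratio of the means was 6.57 (2.41 ± 0.476 against 0.367 ± 0.0911, SD, n = 3 each). With the pseudocount of 0.5, which weighs on a gene at this level, the log2 difference was 1.74 (standard error 0.16, 95% confidence interval 1.37 to 2.10, adjusted p = 5.9e-05, limma). It was 2.69 on the recovered fragments, of which the sham libraries held 32, 36 and 51 and the BPVB libraries 334, 312 and 253.

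Cdkn2c encodes p18, an inhibitor expressed in many differentiating tissues. Its FPKM was 17.0, 17.2 and 12.6 in the BPVB veins against 7.40, 7.23 and 6.59 in the sham veins. Replicate 3 of the BPVB group was again the lowest of its group, yet lay above all sham libraries. The mean rose 2.20-fold, from 7.07 ± 0.426 to 15.6 ± 2.56 FPKM (SD, n = 3 each), and the log2 difference was 1.07 (standard error 0.11, 95% confidence interval 0.81 to 1.34, adjusted p = 1.4e-04, limma). Because both genes rose, the balance between them was read within each library. Cdkn2b stood at 0.162, 0.153 and 0.148 of the FPKM of Cdkn2c in the BPVB group and at 0.0399, 0.0466 and 0.0712 in the sham group. The ratio was 3.02-fold higher after banding (exact permutation test, two-sided, p = 0.1, adjusted 0.17), with no overlap between the groups.

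**Figure D1:**
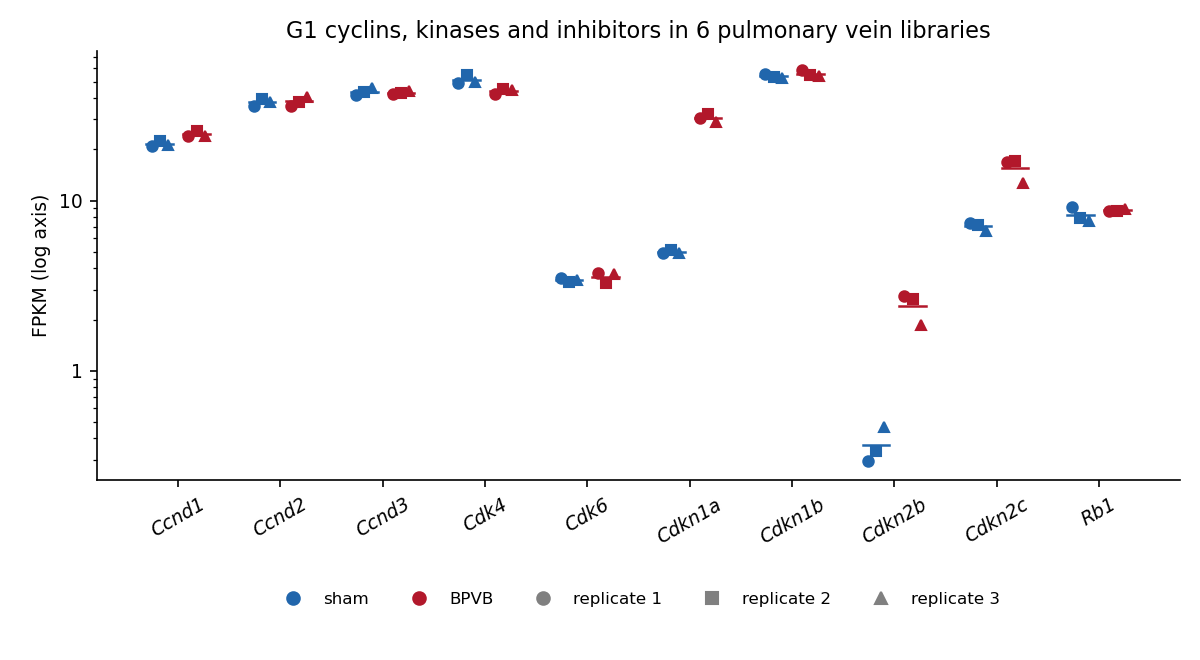
FPKM of the 10 genes on a log axis in the 3 sham (blue) and 3 BPVB (red) libraries, with marker shape for the replicate and a line for the group mean. The groups stand apart for Cdkn1a, Cdkn2b and Cdkn2c, and differ little in level for the cyclins, the kinases, Cdkn1b and Rb1.

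Of the 3 D-type cyclins, 1 was called. Ccnd1, the cyclin most closely tied to mitogen signals, had FPKM values of 24.0, 25.5 and 23.9 in the BPVB veins against 21.0, 22.5 and 21.2 in the sham veins. All banded veins lay above all sham veins, and the size of the rise was small: 24.5 ± 0.876 against 21.5 ± 0.846 (SD, n = 3 each), a log2 difference of 0.18 (standard error 0.051, 95% confidence interval 0.07 to 0.30, adjusted p = 0.024, limma). The call was lost without a trend in the variance (adjusted p = 0.061, limma), when BPVB replicate 2 was left out (0.081), and likewise for sham replicate 1 (0.078) or 3 (0.074).

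For Ccnd2, values of 35.8, 38.2 and 40.9 FPKM in the BPVB veins against 35.9, 39.4 and 38.2 in the sham veins overlapped. The log2 difference was 0.02 (95% confidence interval -0.11 to 0.15, adjusted p = 0.86, limma), and its sign turned with median-of-ratios scaling. Ccnd3, a cyclin prominent in differentiated and blood-forming cells, was at 42.4, 42.8 and 44.1 FPKM across the BPVB veins and at 41.8, 43.5 and 46.1 in the sham veins, again with overlap. Its log2 difference was -0.02 (95% confidence interval -0.12 to 0.08, adjusted p = 0.75, limma), with the opposite sign in TPM. The ratio of Ccnd1 to Ccnd2 was 0.671, 0.668 and 0.585 in the BPVB group and 0.583, 0.571 and 0.554 in the sham group, which did not overlap, although BPVB replicate 3 came close to sham replicate 1 (exact permutation test, two-sided, p = 0.1, adjusted 0.17). For Ccnd3 against Ccnd2 the ratio averaged 1.13 ± 0.0536 in the BPVB group and 1.16 ± 0.0508 in the sham group (SD, n = 3 each, exact permutation test, two-sided, p = 0.5).

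Of the kinases, Cdk4 fell. It had FPKM values of 42.2, 45.5 and 45.0 in the BPVB veins against 48.9, 54.9 and 49.9 in the sham veins, with every banded vein below every sham vein. The mean was 44.2 ± 1.78 against 51.2 ± 3.20 (SD, n = 3 each), and the log2 difference was -0.21 (standard error 0.053, 95% confidence interval -0.33 to -0.09, adjusted p = 0.016, limma). The call was lost without a trend in the variance (adjusted p = 0.065, limma) and without BPVB replicate 1 (0.052). In GRCr8, Cdk4 overlaps Tspan31, a membrane protein gene, and the strand setting of the counting is not given in the sources used here, so that reads of the shared stretch may be uncertain. Tspan31 was at 41.9, 46.1 and 36.6 FPKM across the BPVB veins and at 50.1, 51.5 and 51.0 in the sham veins, and fell as well, by 0.29 on the log2 scale (adjusted p = 0.015, limma, and 0.057 without a trend in the variance).

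Cdk6, the other kinase partner of the D-type cyclins, was the least expressed of the 5 cyclins and kinases per length. FPKM values of 3.75, 3.26 and 3.69 in the BPVB veins against 3.52, 3.35 and 3.41 in the sham veins overlapped, and the log2 difference was 0.05 (95% confidence interval -0.17 to 0.27, adjusted p = 0.73, limma). The ratio of Cdk6 to Cdk4 was 0.0888, 0.0716 and 0.0821 in the BPVB group and 0.0720, 0.0610 and 0.0683 in the sham group. BPVB replicate 2 fell just below sham replicate 1, so the groups overlapped (exact permutation test, two-sided, p = 0.2, adjusted 0.25). Rb1, the target of these kinases, was at 8.66, 8.73 and 8.89 FPKM across the BPVB veins and at 9.16, 7.92 and 7.56 in the sham veins. Sham replicate 1 exceeded all banded veins, and the log2 difference was 0.09 (95% confidence interval -0.09 to 0.28, adjusted p = 0.43, limma). In GRCr8, Rb1 overlaps Lpar6, a receptor gene with a log2 difference of -0.12 (adjusted p = 0.14, limma).

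**Figure D2:**
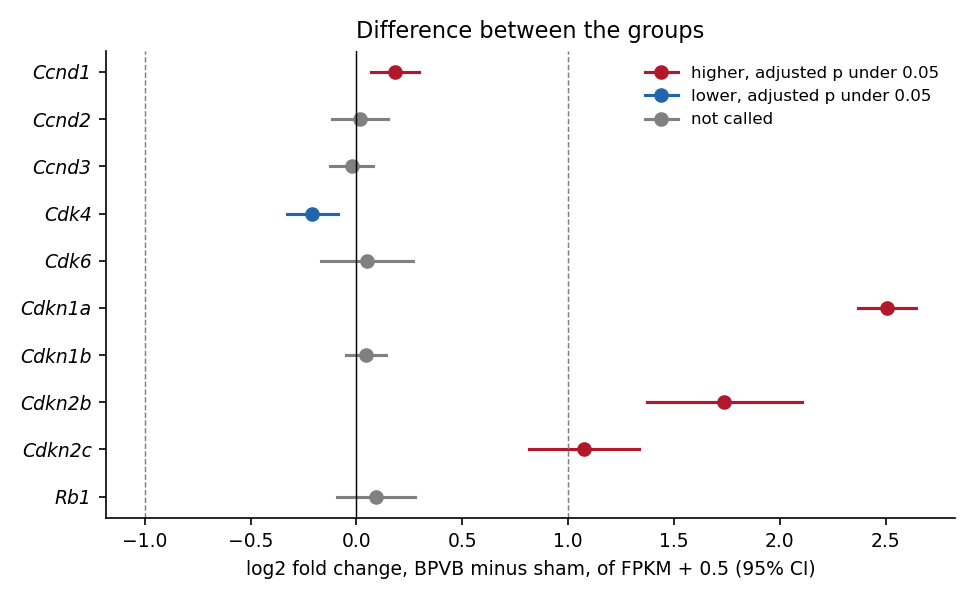
Log2 fold change (BPVB minus sham, of FPKM + 0.5) of the 10 genes with 95% confidence intervals from limma, colored by call, with dashed lines at a log2 fold change of 1 in either direction. Cdkn1a, Cdkn2b and Cdkn2c lie at 2.51, 1.74 and 1.07, and the other 7 genes between -0.21 and 0.18.

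In all, 4 of the 10 genes were called higher in the BPVB group (Cdkn1a, Cdkn2b, Cdkn2c and Ccnd1) and 1 was called lower (Cdk4), beside 17.2% of all tested genes called higher and 14.3% called lower. Over all tested genes the balance turned with the scaling, with 2362 higher and 2454 lower by median of ratios, 2354 and 2434 by quantile normalization and 2996 and 1880 in TPM, beside 2605 and 2170 here. The call is an adjusted p under 0.05. With a log2 fold change above 1 in addition, the thresholds of the study, 3 of the 10 were up-regulated and 0 down-regulated (limma, and 0 by limma-voom), beside 2.24% and 1.03% of all tested genes. The study applied these thresholds with DESeq2, a different method, so the shares given here are not those of the study. At an unadjusted p under 0.05 in limma, Cdk4 was the 1 gene that was lower. For 5 of the 10 the groups did not overlap, beside 45.6% of all tested genes, so that a lack of overlap alone was common. The median log2 difference of the 10 was 0.07, beside 0.02 over all tested genes. By role, 3 of 4 inhibitors, 1 of 3 cyclins and 0 of 2 kinases rose.

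The order of the levels per length also differed. In the sham group it ran from Cdkn1b (54.0 ± 1.29 FPKM, SD, n = 3) through Cdk4, Ccnd3, Ccnd2, Ccnd1, Rb1, Cdkn2c, Cdkn1a and Cdk6 to Cdkn2b (0.367 ± 0.0911). Only the first pair, Cdkn1b and Cdk4, overlapped among neighbors in that order. In the BPVB group Cdkn1a stood in place 5 instead of place 8, above Ccnd1, and Cdkn2c moved above Rb1. There the neighbors that overlapped were Cdk4 and Ccnd3, and Cdkn1b (55.7 ± 2.40) was again first and Cdkn2b (2.41 ± 0.476) last.

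Summed FPKM were formed after the values of the single genes were seen and are given without a test. The 3 D-type cyclins together came to 102.3, 106.5 and 108.9 FPKM across the BPVB veins and to 98.67, 105.5 and 105.5 in the sham veins, which overlapped. The 4 inhibitors together came to 109, 107 and 97.5 across the BPVB veins and to 68.0, 66.3 and 64.9 in the sham veins, a mean 1.57 times as high. Cdkn1a made up 7.52% ± 0.249 of that sum in the sham group and 29.5% ± 1.13 in the BPVB group, and Cdkn1b 81.3% ± 0.379 and 53.4% ± 2.05 (SD, n = 3 each). In the sham veins the inhibitor transcripts were thus mostly Cdkn1b, and in the banded veins Cdkn1a and Cdkn2c came on top of a similar level of Cdkn1b.

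**Figure D3:**
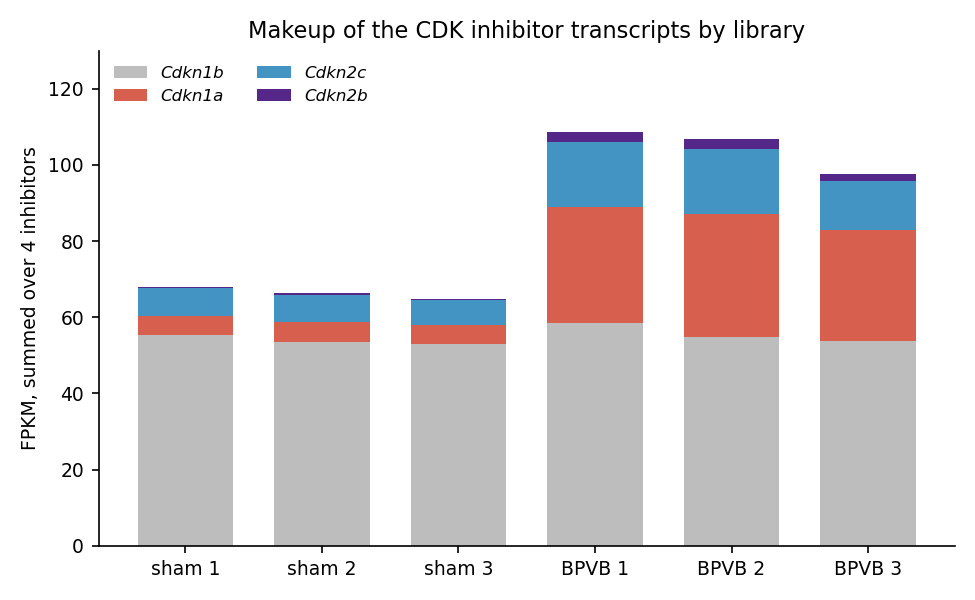
FPKM of Cdkn1b, Cdkn1a, Cdkn2c and Cdkn2b stacked for each of the 3 sham and 3 BPVB libraries, 1 bar per library. The bars of the sham group end between 64.9 and 68.0 and those of the BPVB group between 97.5 and 109, with a Cdkn1b segment of similar height in all 6.

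**Figure D4:**
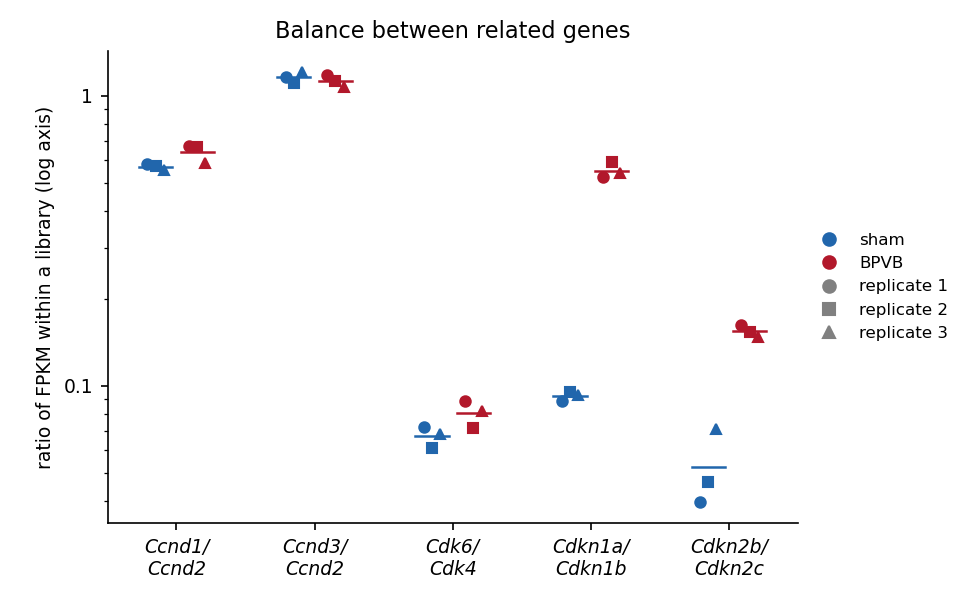
Ratio of FPKM between pairs of related genes within each library on a log axis, sham in blue and BPVB in red, with marker shape for the replicate and a line for the group mean. The groups do not overlap for Cdkn1a/Cdkn1b, Cdkn2b/Cdkn2c and Ccnd1/Ccnd2, and overlap for Ccnd3/Ccnd2 and Cdk6/Cdk4.

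The profile of Cdkn1a over the 6 libraries was set beside that of 12156 other genes whose FPKM averaged 1 or more. The most alike by Pearson r of log2(FPKM + 0.5) were Ankrd1, Gpc3 and Acta1, each with r = 0.9996. The 6 points fall into the 2 groups, so that r mainly records a common step between them. Ankrd1, a stretch-responsive muscle gene, was at 2214 ± 21.0 FPKM in the BPVB group and at 969 ± 3.99 in the sham group (SD, n = 3 each). Gpc3, a glypican of the cell surface, was at 84.3 ± 3.19 and 33.1 ± 0.963, and Acta1, skeletal muscle actin, at 148 ± 5.30 and 56.0 ± 0.911. Within the set, r with Cdkn1a was 0.985 for Cdkn2b, 0.972 for Cdkn2c, 0.917 for Ccnd1 and -0.856 for Cdk4. For the genes that were not called, r was 0.498 (Rb1), 0.477 (Cdkn1b), 0.36 (Cdk6), 0.114 (Ccnd2) and -0.258 (Ccnd3).

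The remaining inhibitors of both families were read from a list of 20 other genes of G1 and S-phase entry. In that list 4 were called higher and 2 lower, beside 17.2% and 14.3% of all tested genes, and the median log2 difference was 0.14. The count called higher was 6 in TPM, 2 with quantile normalization, 1 without BPVB replicate 3 and 2 without sham replicate 1. Cdkn2d (p19, an INK4 inhibitor) rose from 8.81 ± 1.24 to 12.0 ± 1.34 FPKM (SD, n = 3 each), a log2 difference of 0.43 (adjusted p = 0.019, limma). Cdkn1c (p57, a CIP/KIP inhibitor) had a log2 difference of 0.34 at the edge of the threshold (adjusted p = 0.049, limma). This call was lost in 12 of the 17 alternatives, with adjusted p up to 0.15, among them limma-voom (0.058), 2 of the other scalings and 5 of the 6 fits with a library left out. Cdkn2a, which lies beside Cdkn2b and encodes p16 and ARF, was at 0.671 ± 0.416 FPKM in the BPVB group and at 0.139 ± 0.191 in the sham group and was not called (adjusted p = 0.055, limma). Its adjusted p was 0.014 with a replicate block, 0.046 in TPM, 0.017 without BPVB replicate 1 and 0.031 without sham replicate 3 (limma). It had only 5, 12 and 23 fragments in the BPVB veins against 1, 0 and 6 in the sham veins. On log2(FPKM + 0.5) Ccna2, the cyclin of S phase and G2, had the largest rise of the list (1.26, adjusted p = 7.9e-05, limma). By the ratio of the means Cdkn2a, which was not called, rose more (4.835, against 2.667 for Ccna2). E2f8, an E2F repressor, rose by 0.54 (adjusted p = 0.041, limma). Ccne1, the cyclin that drives CDK2 at the G1/S boundary, fell by 0.69 (adjusted p = 0.017, limma) on 9 to 43 fragments, and E2f6, another repressor, fell by 0.18 (adjusted p = 0.0098, limma). Leaving out single libraries ended the calls of E2f8 (any library but BPVB replicate 2), Ccne1 (BPVB replicate 3, sham replicate 1 or 3) and Cdkn2d (BPVB replicate 3).

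Of 14 genes that activate or degrade the cyclin-CDK complexes, Ddb1, an adaptor of CUL4 ubiquitin ligases, was called higher (log2 difference 0.12, adjusted p = 0.037, limma) and 0 were called lower, beside 17.2% and 14.3% of all tested genes. The counts depended on the processing, with 3 higher and 2 lower by limma-voom and 0 higher and 1 lower with median-of-ratios scaling. The p53 list held p53 itself and 15 of its regulators and targets other than Cdkn1a, of which 6 of 16 were called higher and 2 lower, beside the same shares of all tested genes, with a median log2 difference of 0.17. The count called higher was 7 in TPM, 2 without BPVB replicate 1 and 3 without sham replicate 1. The largest rises were those of Gdf15 (0.78), a stress cytokine, Tp53inp1 (0.53) and the death receptor Fas (0.45). Btg2, an antiproliferative gene, fell by 0.99 and Ccng1 by 0.19 on the log2 scale. Mdm2, the p53 ubiquitin ligase and a target of p53, had a log2 difference of 0.01 (adjusted p = 0.94, limma). The called differences of the list lay between -0.99 and 0.78, beside 2.51 for Cdkn1a. The calls of Ddb1 (any library but BPVB replicate 2 or sham replicate 2), Gdf15 (any library but BPVB replicate 3 or sham replicate 3) and Fas (BPVB replicate 1) were lost when a single library was left out. Gdf15, with 10 to 47 fragments per library, also lost its call by limma-voom (adjusted p = 0.11).

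Of 6 genes for FOXO and SMAD factors, which act on the inhibitor promoters in other settings, Smad3 (log2 difference 0.71, adjusted p = 3.2e-04, limma), Foxo4 (0.22) and Smad4 (0.19) were called higher and Foxo3 (-0.28) lower, beside 17.2% and 14.3% of all tested genes. Of 8 genes of the DREAM and MuvB complexes, Foxm1 (0.71) and Mybl1 (0.66) were called higher and 0 lower (1 by limma-voom or with quantile normalization), beside the same shares. The lists of later phases stood beside these. All 10 mitotic genes were called higher, with a median log2 difference of 1.27, among them Cdc20 (1.47), Top2a (1.47) and Ccnb2 (1.41). Of 12 DNA replication genes, 2 were called higher and 0 lower, which for the rises is near the 17.2% of all tested genes. With median-of-ratios scaling, by limma-voom, and without BPVB replicate 1 or 3, 1 was called lower. The higher ones were Rrm2 (1.18) and Mcm7 (0.32, called only with all libraries or without BPVB replicate 2 or sham replicate 3), and the median of the list was -0.13. The 3 inhibitors and the 10 mitotic genes were thus higher in the same banded veins, and whether in the same cells cannot be told apart in bulk tissue.

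**Figure D5:**
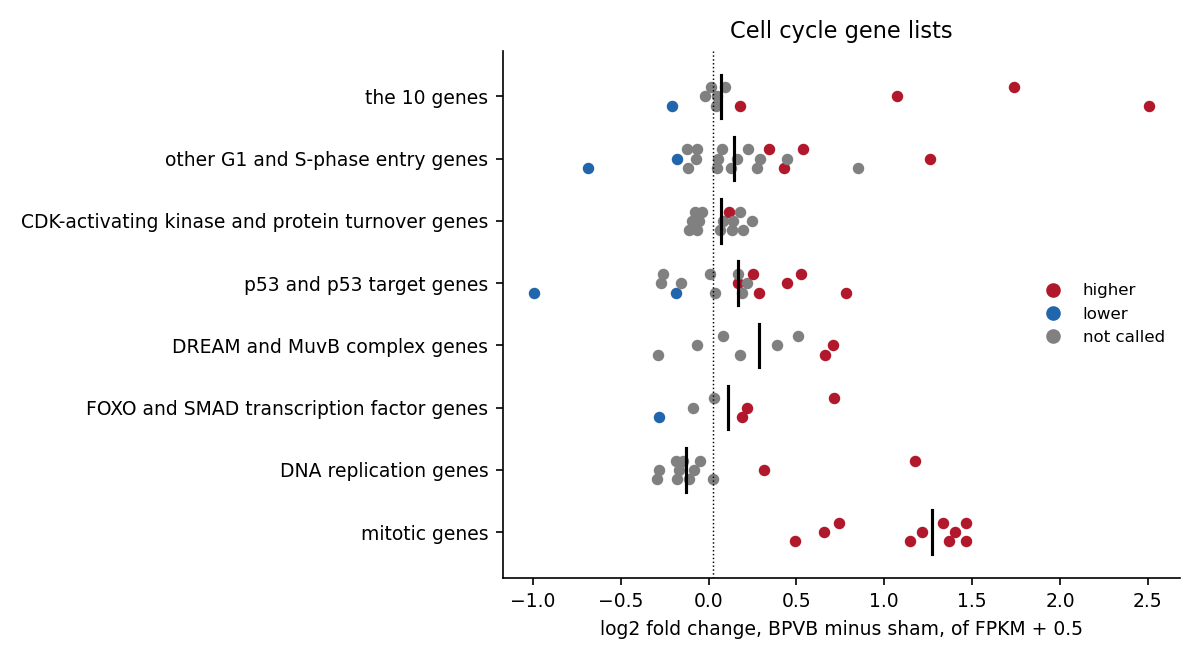
Log2 fold change (BPVB minus sham, of FPKM + 0.5) of each gene of 8 lists, 1 point per gene, red for called higher, blue for called lower and grey for not called, with a black bar for the median of the list and a dotted line at the median of all tested genes (0.02). The medians of the mitotic genes and of the 10 G1 genes are 1.27 and 0.07.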

How the data were processed

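Bulk RNA-seq of the PVs of 3 BPVB and 3 sham-operated rats was used, with groups and replicate numbers from the sample titles. The authors mapped the reads with HISAT and deposited 1 FPKM value per gene and library. The methods text names HTSeq-count for counting, whereas the submitters' processing notes name featureCounts 1.5.0-p3, beside HISAT2 2.0.5. The genome build, annotation and strand setting are not given in the sources used here. Every column of per-sample values was used (0 unused).

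The fragments behind the FPKM were recovered as whole numbers for 17833 of 17833 genes (tolerance 1e-06), and 99.78% of each library total lay on listed genes. Expression was tested with limma 3.58.1 in R 4.3.3 (lmFit, eBayes with trend) on log2(FPKM + 0.5) over genes whose FPKM averaged 0.1 or more, two-sided, with Benjamini-Hochberg adjustment. The pseudocount lowers fold changes of low genes. The fit was tested on simulated data. Within-library ratios were compared by exact permutation tests (scipy 1.17.1). The labels name samples, not animals or litters, and p-values measure the spread between these samples. The named genes are the 10 members, up to 3 called genes per direction of each of 7 lists, all inhibitors of both families, overlapping genes, and the 3 genes most alike to Cdkn1a. Outside this rule, Mdm2 of the p53 list, which was not called, and single cell type markers were named as well. The members and the lists were chosen with earlier results of these data known. Alternatives were 2 other pseudocounts, 2 other filters, 3 other scalings, a replicate block, robust eBayes, eBayes without trend, limma-voom on the recovered fragments and leaving out each library.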

Additional observations from a re-analysis of the deposited data

How the results depend on the processing

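Cdkn1a, Cdkn2b and Cdkn2c stayed higher with an adjusted p under 0.05 in limma under all 17 alternatives, with log2 differences of 2.40 to 2.62, 1.31 to 2.69 and 1.00 to 1.21. For Cdkn2b, a pseudocount of 1 gave 1.31, whereas 0.1 gave 2.43. Of 170 values of the 10 genes under these alternatives, 158 kept their direction and their side of the threshold. Without a trend in the variance 0 genes of the set were called lower and 3 higher. Leaving out each library in turn gave 0 to 1 called lower and 3 to 4 called higher, because Ccnd1 and Cdk4 lost their calls as given above. Among genes that were not called, the log2 difference of Ccnd2 was -0.0095 with median-of-ratios scaling and between -0.0317 and 0.0633 with single libraries left out, that of Ccnd3 was 0.0089 in TPM and between -0.0554 and 0.0144 with single libraries left out, and that of Cdk6 was -0.0246 with quantile normalization. The cause was not tested.

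Replicate numbers are shared between the groups. The deviations of same-numbered libraries correlated at 0.031, 0.025 and 0.019, which is too weak to pair them, although each library correlated best with its own number. With a replicate block, 4 genes of the set were called higher, 1 lower and 3 passed the study thresholds, and 2466 of all tested genes were higher and 2073 lower. The ratio differences, such as 2.58 for Cdkn1a to Cdkn1b, cannot move under the block. In the lists of other genes, E2f8, Ddb1 and Cdkn1c lost their calls under it, Cdkn2a gained one, and the count of p53 genes called higher was 4. Of 372 values of the 3 or fewer genes named per direction of a list, 344 kept their side of the threshold, 28 lost their call and 0 turned sign. Cdkn1c, which is not among these, lost its call in 12 of 17 alternatives. With 3 libraries a group, precision is limited by the libraries and, for Cdkn2b in the sham group, by 32 to 51 fragments. Counting limits cover counting error only.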
